A study of Mus musculus with 24 samples.

Results

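The comparison set the quadriceps of nebulin-deficient mice, a fast muscle, against the soleus of control mice, a normal slow muscle, and asked how close the expression levels lie and which genes stay apart. It took the 6 arrays titled as knockout quadriceps and the 6 titled as control soleus, 12 of the 24 arrays of the series, and read the deposited intensities after a log2 transform. Of 19938 genes named by a probe set with exactly 1 symbol, 15999 were above the dim limit (the 30th percentile of an array) on at least 6 arrays and were compared, and the other 3939 were not tested. The remaining arrays, 6 of control quadriceps and 6 of knockout soleus, entered the same model. Control quadriceps is given beside many results, but not all, as the distance of a normal fast muscle from the same soleus. Where it is not given, a difference may already be present between the normal muscles.

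All mice, controls included, carried the floxed nebulin allele on both chromosomes. Knockout (cKO) mice also carried a hemizygous MCK-Cre transgene, in which the promoter of muscle creatine kinase drives the recombinase in muscle, and control mice lacked it. The mice were males aged 40 to 42 days on a mixed background of C57BL/6J with 1219S6/SvEvTac, as the labels spell it. Each group held 6 biological replicates per the series' design text, which also gives the knockout quadriceps as much smaller than the control muscle. Muscle and genotype both differ between knockout quadriceps and control soleus, so their parts in a difference cannot be told apart within this comparison. A whole muscle was measured, so fewer cells of a type and less RNA per cell cannot be told apart either.

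Nebulin is a very large protein bound along the actin (thin) filament of the sarcomere, and it is needed for its normal length and for force. Fast and slow fibres build the sarcomere from different genes for the same parts: slow fibres use the myosin heavy chain of Myh7, slow troponins and the calcium pump of Atp2a2, and fast fibres use Myh4, Myh1 and Myh2, fast troponins and the pump of Atp2a1. Soleus is rich in slow, oxidative fibres, while mouse quadriceps is mostly fast and glycolytic.

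The targeted gene was read first. Neb (chromosome 2, 52136640 to 52338798 in GRCm38.p6), the nebulin gene, had log2 intensities from 10.50 to 11.16 (median 10.82) in knockout quadriceps, from 12.04 to 12.56 (median 12.46) in control soleus and from 12.11 to 12.50 (median 12.28) in control quadriceps. All 6 knockout arrays lay below every control array of both muscles. The fitted level was 2.92-fold lower in knockout quadriceps than in control soleus (log2 difference -1.55, SE 0.11, limma adjusted p = 4.55e-11, n = 6 and 6). The place of the probes relative to the deleted part is not given in the sources used here, so the remaining signal cannot be read as intact transcript.

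The muscle markers Acta1 (12.97 to 13.15) and Ckm (12.47 to 13.00) were near the top of the range on all arrays of the 3 groups. Array medians on the log2 scale were 4.74 to 4.87 in knockout quadriceps, 4.76 to 4.86 in control quadriceps and 4.88 to 4.94 in control soleus. The medians of the 2 groups compared thus did not overlap, and the effect of centring on the calls is given below. Replicates of a group correlated at r = 0.963 to 0.993 over all kept genes. Control soleus replicate 1 stood apart from the other soleus controls, with a root mean square (RMS) log2 difference of 0.299 from their mean, where the other soleus controls had 0.185 to 0.227 from theirs. In that array the embryonic genes Myh3 (9.80) and Mybph (8.17) had the highest value of the 6 soleus controls, and the fast genes Mybpc2 (6.39) and Actn3 (9.72) had the lowest. Some results that depend on it, but not all, are given with and without it, and the named calls lost without it are listed at the end. Control quadriceps replicate 4 stood at 0.387 from its own group, against 0.189 to 0.317 for the others.

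Over the whole gene set, no smaller distance of the knockout quadriceps from normal soleus was detectable than that of normal quadriceps. The RMS log2 difference from the mean of the soleus controls was 0.455 ± 0.031 (SD, n = 6, range 0.422 to 0.489) for knockout quadriceps arrays and 0.444 ± 0.046 (SD, n = 6, range 0.388 to 0.516) for control quadriceps arrays. The ranges overlapped, and the difference of 0.011 was within the spread of the arrays (exact two-sided permutation test over 924 regroupings, p = 0.619). With quantile normalization between arrays the difference turned to -0.001 (exact permutation p = 0.974). The knockout arrays were also 0.415 to 0.484 away from the quadriceps control mean, and 3 of the 6 lay nearer to it than to the soleus control mean.

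**Figure D1:**
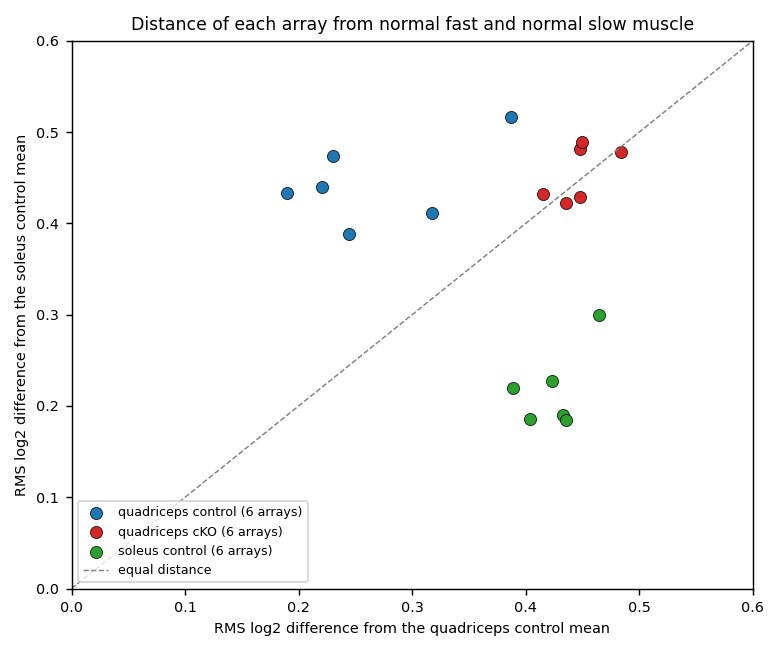
Distance of each array of control quadriceps, knockout quadriceps and control soleus from normal fast muscle (horizontal, RMS log2 difference from the quadriceps control mean) and from normal slow muscle (vertical, RMS log2 difference from the soleus control mean), over 15999 genes; a control array is set against the mean of the other 5 arrays of its group. The 6 knockout arrays sit close to the line of equal distance, between 0.422 and 0.489 from soleus, and away from both groups of controls.

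In knockout quadriceps against control soleus, 8055 of 15999 genes (50.3%) passed an adjusted p of 0.05, of which 4190 (26.2%) were higher in the knockout quadriceps and 3865 (24.2%) lower. Most of these differences were small: 461 genes were called and at least 2-fold apart, 368 of them higher (2.3% of genes) and 93 lower (0.581%), and 73 were at least 4-fold apart. A 95% interval wholly within 1.5-fold either way, used here as the measure of closeness, held for 11802 genes (73.8%), of which 4201 were also called. The arrays of the groups did not overlap for 3802 genes (23.8%), with all 6 knockout arrays above all 6 soleus arrays for 2419 (15.1%) and below them for 1383 (8.64%). In control quadriceps against the same soleus arrays, 5362 genes (33.5%) passed, 247 at least 2-fold higher (1.54%) and 159 at least 2-fold lower (0.994%), and 12635 (79%) had an interval within 1.5-fold. Both comparisons share the 6 soleus controls, so they are set side by side only. The labels do not say whether control quadriceps and soleus of 1 number came from 1 mouse, but ages matched for all 6 numbers and same-numbered arrays deviated together. With the animal as a random block 6308 genes passed in the control comparison.

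The split of calls between higher and lower depended on the scaling of the arrays and on the filter. As deposited, 52.0% of called genes were higher in the knockout quadriceps; with each array centred on its median the share was 73.0%, and with each array centred on its 75th percentile it was 29.8%. These centrings moved the median difference of all genes from 0.00 to 0.10 and -0.13. The stricter filter on dim genes also moved the share, to 63.5%, with 3972 genes higher and 2285 lower. Small differences in the account that follows are therefore relative to the deposited scale.

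The slow contractile genes lay below soleus for the most part and above control quadriceps. Of the 15 genes of the list, 7 were lower in knockout quadriceps than in control soleus (24.2% of all genes were), 1 was higher and 7 were not called. In total 53.3% were called, about as often as genes in general (50.3%), and 5 had an interval within 1.5-fold, beside 73.8% of all genes. All 6 knockout arrays were below all 6 soleus arrays for 8 genes, beside 8.64% of all genes. The mean log2 level of the list was 10.62 to 11.06 on knockout arrays, 11.12 to 11.69 on soleus and 8.80 to 9.89 on control quadriceps. The median difference was -0.45 on the log2 scale, beside 0.00 for all genes. In control quadriceps all 15 were lower than in soleus, with a median of -2.35. The RMS difference of the list from soleus was 0.79 for knockout quadriceps and 2.19 for control quadriceps, beside 0.42 and 0.38 for all genes. With arrays centred on the 75th percentile 11 members were lower, with arrays centred on the median 6, and without soleus control replicate 1 also 6.

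Myh7 encodes the slow myosin heavy chain. Its log2 intensity ran from 11.90 to 12.37 (median 12.09) in knockout quadriceps, from 12.46 to 12.92 (median 12.51) in control soleus and from 8.98 to 11.12 (median 9.33) in control quadriceps. Every knockout array was below every soleus control and above every control quadriceps array. The difference from soleus was -0.45 (SE 0.25) and not called (limma adjusted p = 0.137), with a 95% interval of -0.97 to 0.07. The SE took in the wide spread of the control quadriceps arrays: fitted on the groups compared only, the adjusted p was 0.00123, and over all alternatives it ran from 0.00123 to 0.257.

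The slow troponin subunits were also between the normal muscles or overlapped soleus. Tnni1, slow troponin I, had 10.74 to 11.33 (median 11.01) in knockout quadriceps, 11.24 to 12.19 (median 11.34) in soleus and 7.89 to 9.60 (median 8.16) in control quadriceps. The knockout and soleus arrays overlapped, and the difference of -0.47 was not called (adjusted p = 0.062), although it passed when only the groups compared were fitted (adjusted p = 0.0137, range over alternatives 0.0137 to 0.182). Tnnt1, slow troponin T, was lower by 0.68 (adjusted p = 0.00652, control quadriceps -2.65), and Tnnc1, the troponin C of slow and heart muscle, was lower by 0.74 (adjusted p = 0.00318, control quadriceps -3.09). The slow tropomyosin gene Tpm3 and the Z-disc gene Myoz2 were lower by 0.77 and 0.70. Myl2, the regulatory light chain of slow myosin, had 11.68 to 12.07 in knockout quadriceps and 12.18 to 12.57 in soleus, which is 1.37-fold lower with no overlap. Its call was lost without soleus control replicate 1 (adjusted p 0.0219 with it and 0.0531 without, range over alternatives 0.000637 to 0.0641).

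Myl3, the ventricular and slow essential light chain, did not follow the others. Its log2 intensity ran from 9.13 to 9.89 (median 9.48) in knockout quadriceps, from 11.45 to 11.92 (median 11.59) in soleus and from 8.75 to 9.52 (median 9.06) in control quadriceps. The knockout arrays lay far below the soleus arrays and overlapped the control quadriceps. The level was 4.39-fold lower than in soleus (log2 difference -2.13, SE 0.13, adjusted p = 6.55e-13), beside -2.50 in control quadriceps. Myh7b, a slow-type myosin heavy chain gene, was 2.17-fold lower (adjusted p = 4.77e-07).

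Other members of the slow list reached or passed the soleus level. Myl6b, another slow essential light chain, had 8.44 to 9.03 in knockout quadriceps and 7.88 to 9.66 in soleus, against 5.90 to 6.45 in control quadriceps. Its knockout and soleus arrays overlapped fully (difference 0.05, 95% interval -0.33 to 0.42). Ankrd2, a stretch-responsive protein of slow fibres, was also close (0.10, interval -0.24 to 0.44), as were Smpx, Actn2 and Mybpc1. Csrp3, the muscle LIM protein of the Z-disc, was the member above soleus: 11.14 to 11.38 in knockout quadriceps against 9.82 to 10.95 in soleus, without overlap, and 7.20 to 8.75 in control quadriceps. It was 1.88-fold higher than in soleus (adjusted p = 0.000268).

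**Figure D2:**
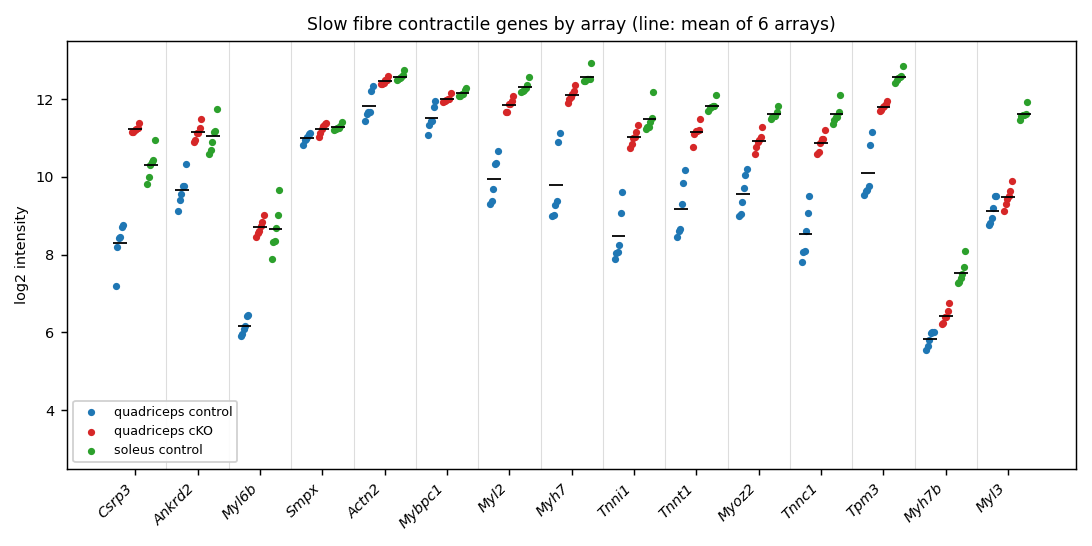
Log2 intensity of the 15 slow contractile genes on each array (dots; 6 per group, line at the mean), in control quadriceps, knockout quadriceps and control soleus. The knockout arrays sit below all soleus arrays for 8 genes, beside 8.64% of all genes. Myl3 (9.13 to 9.89) stays with control quadriceps, and Csrp3 (11.14 to 11.38) exceeds soleus.

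The regions before the start of Tnni1, whose knockout arrays overlapped soleus, and of Myl3, whose arrays did not, are shown as the 250 bases upstream of the start in RefSeq (GRCm38.p6). Capitals mark CAGCTG, an E-box, in Tnni1 (chr1:135799171-135799420, plus strand), where it starts 68 bases before the start site. In Myl3 (chr9:110763428-110763677, plus strand) they mark CATTCC or its reverse complement GGAATG, the core of the MCAT element, which start 177 and 149 bases before it. Tnni1 has a further start in the table, whose window holds the same E-box at 158 bases before that start. The motif to mark was chosen separately for each gene, so the marks do not compare the genes.
Tnni1: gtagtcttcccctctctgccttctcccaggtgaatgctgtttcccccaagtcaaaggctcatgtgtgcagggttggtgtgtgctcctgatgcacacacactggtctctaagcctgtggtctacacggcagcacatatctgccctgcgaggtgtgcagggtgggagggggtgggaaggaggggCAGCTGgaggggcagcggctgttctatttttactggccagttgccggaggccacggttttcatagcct
Myl3: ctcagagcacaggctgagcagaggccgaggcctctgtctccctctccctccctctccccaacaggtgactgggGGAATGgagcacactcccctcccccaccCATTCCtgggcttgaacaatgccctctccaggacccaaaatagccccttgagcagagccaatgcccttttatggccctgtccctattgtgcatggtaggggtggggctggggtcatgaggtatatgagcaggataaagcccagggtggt
CAGCTG, which is its own reverse complement, was found in 13% of 32851 such windows of all genes, and CATTCC on either strand in 12.6%. No printed match overlaps another, and a match is a description of letters, not a site. Of the 15 slow contractile genes, 5 held CAGCTG in a window, beside 14.7% of all genes with a window. The share of the list was not counted for CATTCC.

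Fast contractile genes lay between both normal muscles or at the soleus level. Of 16 genes, 8 were higher in knockout quadriceps than in soleus, where 26.2% of all genes were, and none was lower. In total 50% were called, beside 50.3% of all genes, and 7 had an interval within 1.5-fold, beside 73.8%. No member was lower in limma at an unadjusted p under 0.05 (10 were higher) or under the other scalings, where 7 to 12 were called higher. The median difference was 0.28, beside 0.84 for control quadriceps, where 14 were higher and 1 lower.

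Myh4 encodes the fastest (type 2B) myosin heavy chain. It ran from 12.40 to 12.72 (median 12.55) in knockout quadriceps, from 7.41 to 11.78 (median 11.03) in soleus and from 12.77 to 12.84 (median 12.79) in control quadriceps. The soleus arrays were uneven but all below the knockout arrays, and all knockout arrays were below the control quadriceps. The level was 5.34-fold higher than in soleus (log2 difference 2.42, SE 0.55, adjusted p = 0.000862), and 1.98 on the log2 scale without soleus control replicate 1 (adjusted p = 0.00304). Myosin heavy chain genes are near-identical over long stretches, so probes of Myh1, Myh2, Myh4 and Myh8 may read each other's transcripts and their levels are uncertain.

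Mybpc2, the fast myosin-binding protein C, was 4.21-fold higher (10.38 to 11.18 against 6.39 to 10.01, adjusted p = 0.000204), and the difference of 2.07 was 1.59 without soleus control replicate 1. Actn3, the alpha-actinin of fast fibres, was 2.67-fold higher (12.12 to 12.59 against 9.72 to 11.78, adjusted p = 1.27e-05). Its log2 difference of 1.42 was 1.16 without soleus control replicate 1. Neither gene's arrays overlapped between the groups. Smaller excesses were called for Pdlim3 (0.80), the regulatory light chain Mylpf (0.67), the Z-disc proteins Myoz1 (0.61) and Myoz3 (0.61), and Myl1 (0.22).

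The fast troponins I and C and tropomyosin overlapped soleus. Tnni2, fast troponin I, had 11.97 to 12.23 in knockout quadriceps, 11.78 to 12.11 in soleus and 12.45 to 12.74 in control quadriceps, and the interval of the difference was -0.03 to 0.29 (called with arrays centred on the median, adjusted p = 0.019, range over alternatives 0.019 to 0.994). Tnnt3, fast troponin T, had 12.43 to 12.58 in knockout quadriceps and 12.18 to 12.41 in soleus, without overlap. Its difference of 0.14 was not called (adjusted p = 0.0615) but passed with median centring, quantile normalization and an intensity trend in the prior (range over alternatives 0.00355 to 0.86). Tnnc2, fast troponin C, differed by 0.02 (interval -0.11 to 0.15), and Tpm1 by 0.05 (interval -0.07 to 0.17). Mylk2, the light chain kinase of skeletal muscle, had 8.97 to 9.42 in knockout quadriceps and 8.74 to 9.54 in soleus, against 10.41 to 10.84 in control quadriceps. Myh2, the type 2A heavy chain, had 12.66 to 12.75 in knockout quadriceps and 12.46 to 12.70 in soleus, and 11.18 to 12.28 in control quadriceps; its interval against soleus was -0.09 to 0.39.

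**Figure D3:**
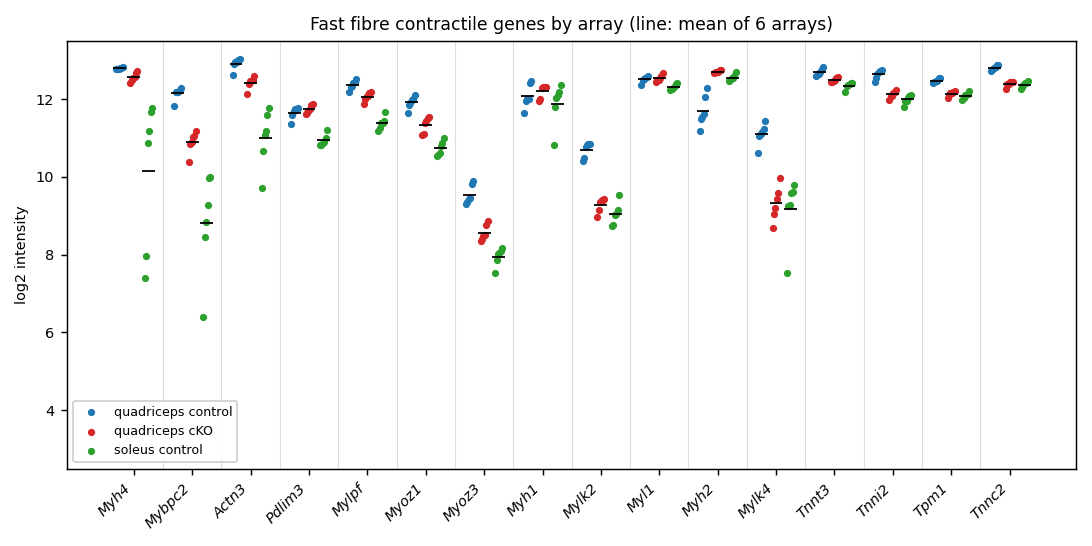
Log2 intensity of the 16 fast contractile genes on each array (dots; 6 per group, line at the mean), in control quadriceps, knockout quadriceps and control soleus. Myh4, Mybpc2 and Actn3 stay well above soleus in the knockout arrays, while Tnni2, Tnnc2, Tpm1 and Mylk2 overlap soleus and below control quadriceps.

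Calcium handling genes were called about as often as genes in general. Of 23 genes, 10 were higher in knockout quadriceps than in soleus and 2 lower (52.2% called, beside 50.3% of all genes), and 16 had an interval within 1.5-fold, beside 73.8% of all genes. Pvalb, the calcium buffer parvalbumin of fast fibres, ran from 11.74 to 12.21 (median 12.02) in knockout quadriceps, 8.82 to 10.84 (median 10.26) in soleus and 12.49 to 12.75 in control quadriceps. It was 3.71-fold higher than in soleus (adjusted p = 1.22e-05), with no overlap. The log2 difference of 1.89 was 1.64 without soleus control replicate 1. Cacng1, the gamma subunit of the muscle calcium channel, was 3.21-fold higher (10.20 to 10.48 against 8.28 to 8.91, adjusted p = 4.65e-12).

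The calcium pump Atp2a2 of slow fibres had 11.18 to 11.65 in knockout quadriceps, 12.05 to 12.44 in soleus and 8.98 to 10.51 in control quadriceps. It was 1.74-fold lower than in soleus without overlap (adjusted p = 0.001). Its inhibitor Pln, phospholamban, was lower by 0.48 (adjusted p = 0.0124, 0.0524 with arrays centred on the median, the highest over its alternatives, which began at 0.00141), and the knockout arrays (4.79 to 5.45) overlapped soleus (5.01 to 6.12). Sln, sarcolipin, another inhibitor of the pump, stood on the other side: 6.88 to 7.29 in knockout quadriceps, 4.59 to 6.53 in soleus and 3.15 to 4.37 in control quadriceps. It was 3.28-fold higher than in soleus (adjusted p = 1.14e-06), while control quadriceps was 1.49 lower on the log2 scale.

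Several genes of the triad and reticulum that differed between the normal muscles were near soleus in the knockout. Casq2, the calsequestrin of slow and heart muscle, had 10.43 to 10.79 in knockout quadriceps and 10.19 to 10.89 in soleus, against 7.78 to 9.28 in control quadriceps. Mrln, the pump inhibitor myoregulin, had 7.66 to 8.13 and 7.58 to 7.82 in these groups, against 8.92 to 9.91 in control quadriceps. Jph2, a junctophilin that joins reticulum to the surface membrane, differed by 0.13 (interval -0.09 to 0.36) and by 1.26 in control quadriceps. Casq2 is a slow-type gene while Mrln and Jph2 were higher in normal fast muscle, so genes of both kinds lay at the soleus level.

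The genes that separate normal fast from normal slow muscle most were picked from the control arrays, with the same soleus controls, so their levels in the 3 groups are a description without a test. Of the 12 furthest above soleus in control quadriceps, Mstn encodes myostatin, a secreted inhibitor of muscle growth: 5.24 to 7.13 (median 5.92) in knockout quadriceps, 3.31 to 4.76 (median 4.42) in soleus, where 1 of 6 arrays was below the dim limit, and 7.48 to 9.24 (median 8.87) in control quadriceps. Its knockout arrays thus fell between both controls. Tspan8, a tetraspanin, had 7.43 to 8.27 in knockout quadriceps, 3.50 to 5.16 in soleus and 8.22 to 8.89 in control quadriceps. Prkag3, the AMP kinase subunit of fast glycolytic muscle, had 8.12 to 8.49, 6.21 to 6.90 and 8.41 to 9.79 in the same order. Both lay nearer to the fast level.

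Of the 12 furthest above control quadriceps in soleus, Tecrl had 5.44 to 6.58 (median 6.29) in knockout quadriceps, 7.06 to 8.53 (median 7.27) in soleus and 2.53 to 4.02 (median 3.11) in control quadriceps, where 5 of 6 arrays were below the dim limit. P3h2, a collagen prolyl hydroxylase, had 9.09 to 10.13 in knockout quadriceps and 9.11 to 10.37 in soleus, which overlapped, and 6.21 to 7.93 in control quadriceps. Rspo3, a secreted enhancer of Wnt signalling, had 6.54 to 6.84, 7.15 to 8.31 and 4.56 to 5.59. These genes lay nearer to the slow level. Lgi1 (chromosome 19, 38264687 to 38308939), a secreted neuronal protein, did not: 4.51 to 6.01 (median 5.33) in knockout quadriceps, 8.35 to 9.27 (median 8.74) in soleus and 4.10 to 6.03 (median 5.06) in control quadriceps. Its knockout arrays overlapped the control quadriceps and were all below soleus, with a log2 difference of -3.50.

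Genes far below soleus differed in their level in control quadriceps. Dusp18, a phosphatase, was as low in control quadriceps (6.19 to 7.72) as in knockout quadriceps (5.81 to 7.08), both under soleus (7.95 to 9.40), with log2 differences of -1.99 in each. Acot2, a mitochondrial thioesterase of fatty acid metabolism, was likewise lower in both (-1.76 and -1.97). Barx2, a homeobox factor, was lowest in the knockout: 4.99 to 5.60 against 7.47 to 7.81 in soleus and 5.82 to 6.63 in control quadriceps, 5.28-fold below soleus (adjusted p = 2.32e-14). Ptpn3, a tyrosine phosphatase, followed the same order, with 7.28 to 7.77, 9.47 to 10.33 and 8.25 to 8.80, and was 5.18-fold below soleus (adjusted p = 1.75e-14). Ppp1r1a, an inhibitor of protein phosphatase 1, was 5.64-fold lower than soleus (adjusted p = 1.02e-09) although control quadriceps (7.21 to 9.44) overlapped soleus (8.90 to 9.24). Bdh1, a ketone body enzyme, was 5.5-fold lower (5.18 to 7.14 against 7.59 to 8.72, adjusted p = 1.11e-06). Mettl11b, whose knockout level was below the dim limit on 2 of 6 arrays, was near soleus in control quadriceps (difference 0.09) and -2.14 in the knockout.

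Among the largest excesses over soleus were genes with like levels in both normal muscles. Aldh3a1 (chromosome 11, 61208510 to 61218418), an aldehyde dehydrogenase, ran from 8.65 to 9.11 (median 8.88) in knockout quadriceps, from 3.85 to 4.76 (median 4.29) in soleus and from 4.30 to 5.69 (median 4.49) in control quadriceps. All knockout arrays were far above both controls, 23.9-fold above soleus (log2 difference 4.58, SE 0.20, adjusted p = 4.23e-15). Ankrd1, a titin-binding stress protein, was 14.2-fold higher (11.53 to 11.90 against 7.44 to 8.20, adjusted p = 6.07e-11, control quadriceps -0.19). Dsp, the desmosomal protein desmoplakin, was 15.3-fold higher (8.15 to 9.79 against 4.43 to 5.13, adjusted p = 1.3e-12, control quadriceps -0.03). Fam171b, Cpne2 and Eda2r, the last a receptor of the tumour necrosis factor family, were 10.1-fold, 9.42-fold and 9.37-fold higher. Ucp1, the uncoupling protein of brown fat, ran from 5.09 to 10.06 in the knockout and from 6.80 to 10.54 in control quadriceps, against 4.13 to 4.73 in soleus, so it was high in both quadriceps groups and uneven in each.

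**Figure D4:**
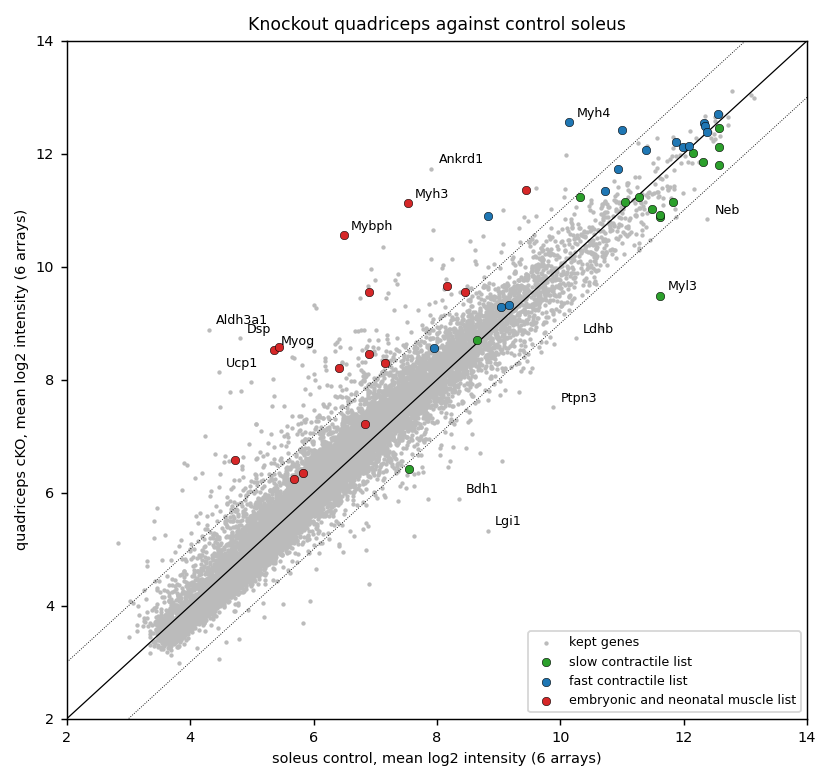
Mean log2 intensity of 15999 genes in control soleus (horizontal) and knockout quadriceps (vertical), 6 arrays each; the solid line marks equal levels and dotted lines a 2-fold difference. Slow contractile genes (green) lie mostly below the line, Myl3 and Myh7b beyond 2-fold, with Csrp3 above it; fast ones (blue) on or above it, and embryonic ones (red) above it.

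Embryonic and neonatal muscle genes were the most distant list. All 15 measured genes were higher in knockout quadriceps than in soleus, where 26.2% of all genes were, with a median difference of 1.79, and the count was 15 under each scaling and without soleus control replicate 1. In control quadriceps 5 were higher and 4 lower, with a median of 0.01. Myh3, the embryonic myosin heavy chain, ran from 10.77 to 11.77 (median 11.04) in knockout quadriceps, from 6.65 to 9.80 (median 7.17) in soleus and from 4.68 to 7.37 (median 5.58) in control quadriceps. It was 12.1-fold higher than in soleus (adjusted p = 6.78e-08), a log2 difference of 3.60 with soleus control replicate 1 and 4.06 without it. Myh8, the perinatal heavy chain, was 6.33-fold higher (9.10 to 9.91 against 6.67 to 7.16, adjusted p = 4.06e-12).

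Factors of muscle formation belonged to the same group. Myog, the differentiation factor myogenin, ran from 8.33 to 8.83 against 4.82 to 6.08 in soleus and 5.67 to 6.25 in control quadriceps, 8.97-fold above soleus (adjusted p = 3.16e-13). Mymk, which drives fusion of myoblasts, was 8.88-fold higher (8.42 to 8.76 against 4.95 to 5.80, adjusted p = 3.66e-12), and its partner Mymx 1.46-fold (adjusted p = 0.000203) with overlapping arrays. Mybph, a myosin-binding protein, was 16.7-fold higher than in soleus, but the quadriceps groups overlapped (10.29 to 10.69 in the knockout, 9.93 to 10.51 in controls, 5.97 to 8.17 in soleus). Actc1, the cardiac actin, was likewise high in both quadriceps groups (10.99 to 11.83 and 10.78 to 12.57, soleus 8.88 to 10.60), and may be read through other actins.

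Genes that rise in denervated muscle and genes of the endplate were on the same side, where 26.2% of all genes were. Of 21, of which 3 are also in the embryonic list, 16 were higher and 2 lower (Colq and Hdac9, named after their values were seen; none was lower with arrays centred on the median), with a median of 0.94, beside -0.12 in control quadriceps. Chrng, the gamma subunit of the fetal acetylcholine receptor, had 6.30 to 6.86 in knockout quadriceps, 4.56 to 4.99 in soleus and 4.45 to 4.91 in control quadriceps. It was 3.6-fold higher than in soleus (adjusted p = 3.1e-13), and both controls overlapped. Chrna1, the alpha subunit, was 2.52-fold higher (9.25 to 9.59 against 7.87 to 8.50, adjusted p = 1.53e-10). Gadd45a and the transcription factor Runx1 were 8.18-fold and 4.89-fold higher. The 250 bases upstream of both receptor genes are shown because the genes moved together and each holds CAGCTG more than 1 time: Chrna1 (chr2:73580339-73580588, minus strand) at 92 and 44 bases before the start and Chrng (chr1:87205561-87205810, plus strand) at 155 and 132.
Chrna1: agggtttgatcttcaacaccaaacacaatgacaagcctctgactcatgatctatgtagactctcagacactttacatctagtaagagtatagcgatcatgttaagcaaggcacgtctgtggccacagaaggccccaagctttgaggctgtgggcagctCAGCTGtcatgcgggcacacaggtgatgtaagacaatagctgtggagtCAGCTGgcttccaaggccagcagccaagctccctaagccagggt
Chrng: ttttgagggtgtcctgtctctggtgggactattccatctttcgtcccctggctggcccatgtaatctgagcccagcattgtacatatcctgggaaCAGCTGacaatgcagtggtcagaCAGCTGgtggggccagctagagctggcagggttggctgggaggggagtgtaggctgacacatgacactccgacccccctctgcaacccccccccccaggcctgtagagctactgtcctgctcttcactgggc
Capitals mark the matches. Windows with 2 or more made up 1.26% of all windows, but both genes were chosen partly for their matches, so this share tests nothing. At least 1 was held by 7 of the 15 genes of the list with a window, beside 14.7% of all genes with a window. These 7 include Hdac9, which was lower than in soleus. In the embryonic and neonatal list, which shares Chrng, 3 of 11 genes with a window held it.

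Glycolytic genes were mostly above soleus, where 26.2% of all genes were called. Of 21 glycolysis and glycogen genes, 14 were higher in knockout quadriceps than in soleus and 4 lower, with a median of 0.47, beside 0.80 in control quadriceps. Gpd1, glycerol-3-phosphate dehydrogenase, had 9.63 to 10.36 in knockout quadriceps, 8.09 to 9.46 in soleus and 10.26 to 11.30 in control quadriceps, 2.67-fold above soleus (adjusted p = 3.19e-06). Ldha, the muscle-type lactate dehydrogenase, was 1.64-fold higher (12.13 to 12.43 against 11.19 to 11.75, adjusted p = 2.12e-06). Its counterpart Ldhb, the heart-type subunit, was 2.87-fold lower (8.42 to 9.28 against 10.11 to 10.52, adjusted p = 4.74e-10) and had 8.33 to 9.03 in control quadriceps. For both lactate dehydrogenases the knockout arrays overlapped control quadriceps and not soleus. The members lower than soleus were Hk2 (-0.66), the main hexokinase of muscle, Gbe1 (-0.52), Gyg (-0.48) and Ppp1r3a (-0.30).

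Oxidative genes were below soleus, most by small amounts. Of 66 genes of oxidative phosphorylation, 42 were lower, where 24.2% of all genes were. The 2 that were higher were Cox6a1 and Ndufa2, named after their values were seen. The median was -0.26, beside 0.05 in control quadriceps. An interval within 1.5-fold held for 50, beside 73.8% of all genes. The count of lower members was 26 with arrays centred on the median and 56 on the 75th percentile. Cox8b, a subunit of cytochrome oxidase, had 10.42 to 10.71 in knockout quadriceps, 11.19 to 11.53 in soleus and 11.01 to 11.69 in control quadriceps. It was 1.68-fold lower than in soleus (adjusted p = 2.12e-07), and the controls overlapped. Of 15 citric acid cycle genes, 11 were lower (median -0.28), of which 3 kept a call with arrays centred on the median.

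Fatty acid oxidation genes were further below soleus, where 24.2% of all genes were called. Of 24, 20 were lower and none higher (1 at an unadjusted p under 0.05 in limma, and 1 called with arrays centred on the median), with a median of -0.59 and of -0.38 in control quadriceps, and 19 to 21 were lower under the other scalings. Lpl, lipoprotein lipase, was 1.97-fold lower, Acadm, an acyl-CoA dehydrogenase, 1.76-fold, and Eci1 1.8-fold. Fabp3, the fatty acid carrier of slow muscle and heart, had 11.11 to 11.63 in knockout quadriceps, 11.90 to 12.07 in soleus and 11.18 to 11.61 in control quadriceps (adjusted p = 2.37e-07). The knockout arrays of Fabp3 thus overlapped their own muscle and not soleus.

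The list of oxygen and creatine buffers was mixed, and it also holds AMP deaminases, carbonic anhydrases, small heat shock proteins and Ldhb. Of 13, 1 was higher (Car14, a call lost with quantile normalization) and 3 lower (Ldhb, Ckmt2 and Slc6a8). The other 9 were not called (30.8% called, beside 50.3% of all genes), and 8 were lower with the 75th percentile. An interval within 1.5-fold held for 9, beside 73.8% of all genes. Among them was Mb, myoglobin, at 12.58 to 12.69 against 12.65 to 12.81 in soleus and 12.06 to 12.44 in control quadriceps. Ampd1, the AMP deaminase of fast muscle, had 9.69 to 10.39 against 10.07 to 10.46 in soleus and 11.42 to 11.72 in control quadriceps, so it too was at the soleus level. Ampd3, a further AMP deaminase, was close from the other side (7.96 to 8.26 against 7.90 to 8.54, control quadriceps 6.45 to 7.16). Ckmt2, the mitochondrial creatine kinase, was 1.77-fold lower (10.83 to 11.33 against 11.76 to 11.94, adjusted p = 1.45e-08).

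Regulators of fibre type did not move as a block. Of 28, 5 were higher in knockout quadriceps than in soleus and 11 lower (57.1% called, beside 50.3% of all genes). An interval within 1.5-fold held for 9, beside 73.8% of all genes. The lower count was 7 with arrays centred on the median, 14 with the 75th percentile and quantile normalization, and 9 without soleus control replicate 1. Sox6, a repressor of slow genes, had 7.65 to 8.17 in knockout quadriceps, 7.17 to 8.14 in soleus and 8.63 to 8.93 in control quadriceps, close to soleus (interval -0.07 to 0.39). Prox1, a factor of slow fibres, had 6.56 to 6.89 against 6.79 to 7.99 in soleus and 4.60 to 5.65 in control quadriceps, 1.52-fold below soleus with overlap (adjusted p = 0.00252). Eya4, a cofactor of homeobox factors of fast fibres, stayed at the fast level: 7.63 to 8.14, against 6.42 to 6.91 in soleus and 7.82 to 8.37 in control quadriceps (2.59-fold above soleus, adjusted p = 5.62e-11). Maf was 1.85-fold higher than in soleus and Tbx15, a factor of glycolytic fibres, 1.36-fold.

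The same list holds regulators of oxidative metabolism. Ppargc1a, the coactivator PGC-1alpha, ran up to 8.52 (median 8.18) in knockout quadriceps, from 8.24 to 10.96 (median 9.35) in soleus and from 8.33 to 9.15 in control quadriceps, 2.52-fold below soleus with overlapping arrays (adjusted p = 0.00123). Esrrb and Ppara, nuclear receptors of oxidative genes, were 2.57-fold and 2.73-fold lower without overlap (adjusted p = 1.54e-07 and 1.66e-06). Esrrg, a related receptor, was lower by 0.64 (adjusted p = 0.0296), a call lost without soleus control replicate 1 and without knockout quadriceps replicates 5 or 6, among others; the p ran from 0.00675 to 0.0988 over the alternatives. Esrra and Ppard, a further pair of such receptors, were lower by 0.27 and 0.23 (adjusted p = 0.0387 and 0.036), both within 1.5-fold, and lost their calls with arrays centred on the median and without single arrays (ranges over alternatives 0.00153 to 0.243 and 0.000699 to 0.293). Ppargc1b, a relative of Ppargc1a, differed by -0.28 and was not called (adjusted p = 0.112, range 0.0172 to 0.328). Hdac4, a histone deacetylase active in denervated muscle, was 1.96-fold higher (9.04 to 9.32 against 7.79 to 8.50, adjusted p = 7.46e-07), with control quadriceps at -0.09.

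Homeobox and T-box genes, which mark position along the limb, were within 1.5-fold of soleus in 20 of 37, beside 73.8% of all genes. Of the 37 measured, 6 were higher and 18 lower, beside 26.2% and 24.2% of all genes. The lower count was 11 with arrays centred on the median, 12 with quantile normalization, 23 with the 75th percentile and 14 without soleus control replicate 1. Tbx3 had 6.07 to 6.59 in knockout quadriceps, 7.11 to 7.82 in soleus and 6.29 to 6.54 in control quadriceps, 2.29-fold below soleus without overlap (adjusted p = 6.26e-09). Hoxa13, a gene of the distal limb, had 3.47 to 3.81 against 4.19 to 4.70 in soleus (control quadriceps 3.81 to 4.39), and 3 of 6 knockout arrays were below the dim limit. Hoxa11 was not above the dim limit on any knockout array, so its level was at least 1.26-fold lower, and Hoxc11, Hoxd11, Hoxd10 and Tbx4 were lower by 0.54 to 0.64. Shox2 and Meis2, of the proximal limb, were higher by 0.72 and 0.71. In control quadriceps the differences from soleus were -1.12 for Tbx3, -0.42 for Hoxa13, 0.60 for Shox2 and 0.33 for Meis2, the last not called (adjusted p = 0.0658, and 0.0378 with the animal as a random block). Hoxc10 was an exception among genes that differed between the normal muscles: 7.68 to 8.19 in knockout quadriceps and 7.64 to 8.01 in soleus, against 8.26 to 8.72 in control quadriceps.

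Thin filament and Z-disc genes were called about as often as genes in general. Of 30, 7 were higher and 7 lower (46.7% called, beside 50.3% of all genes), and 19 were within 1.5-fold, beside 73.8%; with arrays centred on the 75th percentile 16 were lower and on the median 11 were higher, and the median difference of the list (-0.05) changed sign on the latter. Acta1, skeletal actin, differed by -0.05 (interval -0.15 to 0.06), and Lmod2, a leiomodin that caps and lengthens thin filaments, by -0.17 (interval -0.39 to 0.04), beside -1.31 in control quadriceps. Tmod1, a tropomodulin that caps the pointed end, was 2.24-fold higher (10.84 to 11.18 against 9.48 to 10.09, adjusted p = 7.03e-08) and overlapped control quadriceps (10.26 to 11.31). Klhl40, which protects nebulin and leiomodin from degradation, was 2.1-fold higher (adjusted p = 1.66e-06), while Kbtbd13, a ubiquitin ligase adaptor mutated in nemaline myopathy, was 2.06-fold lower (adjusted p = 4.48e-06). Lmod3 was lower by 0.57 (10.11 to 10.41 against 10.75 to 11.16, adjusted p = 3.92e-06).

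Response lists held more genes above soleus than below. Of all genes, 26.2% were higher and 24.2% lower. The mechanical stress and p53 target lists were called about as often as genes in general (52.6% and 50%, beside 50.3%). Among mechanical stress genes 9 of 19 were higher and 1 lower (Crim1, named after its value was seen), led by Ankrd1, Rrad (4.57-fold) and the small heat shock proteins Hspb8 (3.44-fold) and Hspb1 (2.75-fold). With arrays centred on the 75th percentile 6 were higher and 4 lower. Chaperone and stress genes were higher in 14 of 20, with Atf3, a stress-induced factor, at 9.17 to 10.51 against 6.22 to 8.10 in soleus (6.89-fold, adjusted p = 1.3e-06); their median was 0.51, beside 0.01 in control quadriceps. Of 12 p53 targets 6 were higher and none lower (none at an unadjusted p under 0.05 in limma, and 1 called with the 75th percentile), among them Eda2r, Phlda3 (2.47-fold) and Mdm2 (2.24-fold). Of 17 cell cycle genes 11 were higher (7 with the 75th percentile) and none lower (none at an unadjusted p under 0.05 in limma), with Mcm6, of the replication helicase, at 6.25 to 7.13 against 3.43 to 4.70 (4.84-fold).

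Growth and degradation genes moved both ways, beside 26.2% of all genes higher and 24.2% lower. Of 29 growth signalling genes 16 were higher and 5 lower (2 lower with arrays centred on the median), with Gdf11, a relative of myostatin, 4.87-fold higher (8.33 to 8.88 against 5.85 to 6.90) and Fst, their antagonist follistatin, 3.34-fold higher (8.24 to 8.82 against 6.50 to 7.38). Gdf11 was also high in control quadriceps (7.69 to 8.94), and Fst was not (6.31 to 7.10). Of 21 atrophy genes 11 were higher and 5 lower, and 6 were higher with arrays centred on the 75th percentile or quantile normalized, and 3 lower with arrays centred on the median. Fbxo30, a ubiquitin ligase of atrophy, was 1.62-fold higher and Fbxo31 2.01-fold lower.

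**Figure D5:**
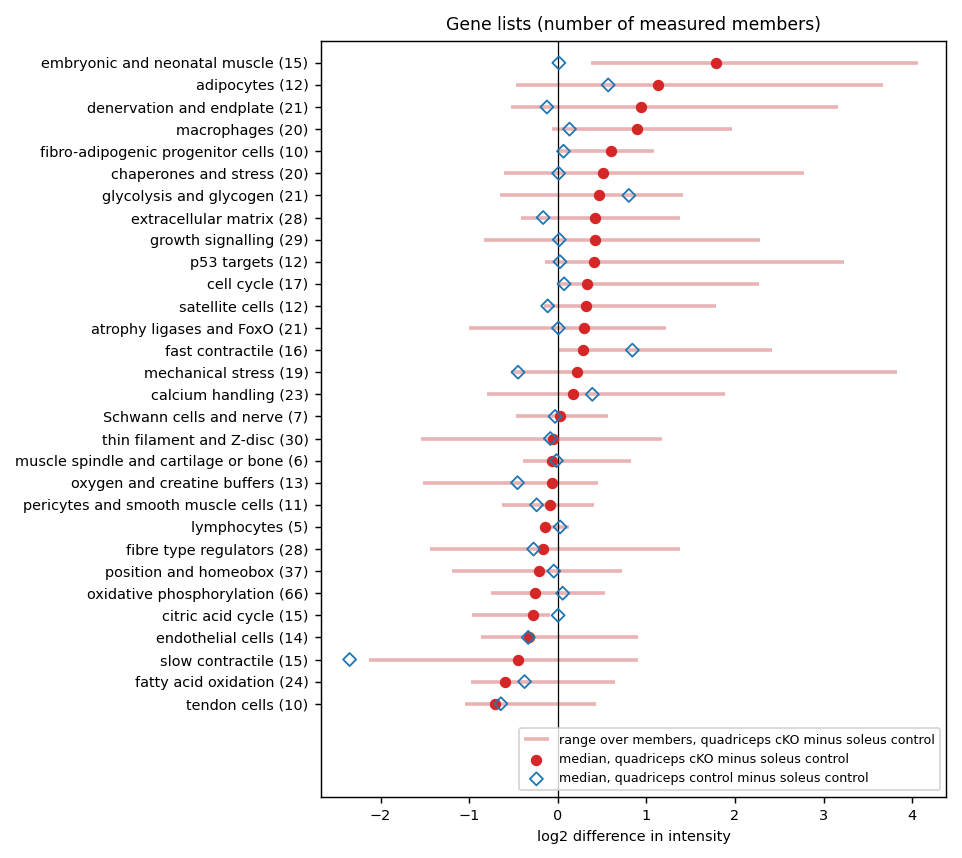
Median difference from control soleus of each gene list, for knockout quadriceps (red dots; bar, range over members) and control quadriceps (open diamonds), in log2 intensity. Slow contractile genes show the widest gap between the medians (-0.45 and -2.35), and the embryonic, denervation and macrophage lists have knockout medians of 1.79, 0.94 and 0.89, with control medians near 0.

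Markers of other cell types moved with the comparison. Of all genes, 26.2% were higher and 24.2% lower. Of 20 macrophage genes 17 were higher in knockout quadriceps and none lower (none at an unadjusted p under 0.05 in limma); their summed intensity was 2560 to 3148 on knockout arrays, 1298 to 1665 on soleus and 1404 to 2254 on control quadriceps. Lgals3 was 3.9-fold, Mpeg1 3.1-fold and Cd68 2.06-fold higher. The 5 measured lymphocyte genes were not called (none at an unadjusted p under 0.05 in limma, and 1 or 2 under the other scalings), and their sums overlapped (78.2 to 106 and 81.7 to 103). Fibro-adipogenic progenitor genes were higher in 8 of 10, with sums of 6316 to 7074 against 4339 to 5092 in soleus. The control quadriceps sums (4645 to 6494) overlapped the knockout, and 4 of these genes were higher there than in soleus. Matrix genes were higher in 18 of 28 (25767 to 30714 against 20638 to 23771 in soleus and 14295 to 24405 in control quadriceps). Among them Col3a1 was 2.44-fold and Postn, periostin, 1.94-fold higher. Satellite cell genes were higher in 5 of 12 (8 with arrays centred on the median), of which 2 are also in the embryonic list. In total 41.7% were called, beside 50.3% of all genes, and 7 were within 1.5-fold, beside 73.8%.

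Tendon and vessel markers stood lower. Of 10 tendon genes 9 were lower and 1 higher (Thbs4, named after its value was seen), and their sum was 3210 to 3831 on knockout arrays against 3883 to 5159 on soleus and 2304 to 4086 on control quadriceps. Scx, the tendon factor scleraxis, had 6.78 to 7.15 against 7.37 to 7.98. Endothelial genes were lower in 8 of 14 (4 with arrays centred on the median, 11 with the 75th percentile) and higher in 1, Rgcc. Their sums were 3865 to 5050 on knockout arrays, 4815 to 6715 on soleus and 3691 to 5937 on control quadriceps. In control quadriceps 8 tendon and 7 endothelial genes were lower than in soleus (8 endothelial with the animal as a random block). The list medians there were -0.64 and -0.33, beside -0.71 and -0.32 in knockout quadriceps. Pericyte and Schwann cell lists had medians within 0.09 of 0 that changed sign with arrays centred on the median and on the 75th percentile, respectively. Adipocyte genes were higher in 9 of 12 (sum 4718 to 12782 on knockout arrays, 2941 to 3940 on soleus, 3492 to 8889 on control quadriceps), with Adipoq, adiponectin, 3.8-fold and Cidec 3.94-fold higher. The part of these cell types in the differences of other genes was not tested.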

How the data were processed

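RNA of whole muscles was hybridised to Affymetrix arrays after biotin labelling. The deposited values are intensities on a linear scale, with 1 value for each probe set on each array. They were made by the authors with RMA in the Affymetrix Expression Console on genome build mm10, per the submitters' processing notes; no version or setting is given in the sources used here. Before testing, these deposited intensities were log2-transformed without further normalization. Of 35557 probe sets, 21789 had 1 gene symbol, 1621 several and 12147 none in the platform annotation; symbols were updated through RefSeq for 21698. For 999 genes with several probe sets the one with the highest mean was used. Genes above the 30th percentile on at least 6 arrays were fitted with limma 3.58.1 in R 4.3.3, in 1 model of 4 group means over 24 arrays (eBayes, two-sided, Benjamini-Hochberg over 15999 genes, called under 0.05). Confidence intervals are at 95%. Array distance was tested with an exact permutation test, whose smallest p is 0.00216. Control quadriceps and control soleus were taken as pairs by number in an alternative with the animal as a random block, since deviations of all 6 same-numbered arrays correlated at 0.155 to 0.305 and all 6 correlated best with their own number; the labels do not state a shared animal. Precision is limited by the number of arrays.

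Tested on simulated data, the model recovered 76% of changes of 0.5 and 100% of changes of 1 on the log2 scale in knockout quadriceps against control soleus (200 of 15999 genes changed), with 12 unchanged genes called. The simulated noise was normal and independent between genes and arrays, without outlying arrays or offsets between groups. Far fewer genes were changed than the 50.3% called in the data, so these rates need not hold for the data. Alternatives covered scaling, the dim filter, probe sets, arrays in the fit, weights, the prior, blocks and left-out arrays. The genes named are the 12 largest called differences each way in both comparisons, leaving out predicted and small RNA genes; every member of the muscle lists; up to 6 members by smallest p of the respiratory, citric acid and fatty acid lists and of the response and cell type lists; and Neb. The groups, the members and the 31 gene lists were chosen with earlier results of these data known. Of the 630 genes listed, 579 passed the filter on dim genes. The 2 red blood cell genes that passed were not called by limma (1 had an unadjusted p under 0.05), and of 6 genes of muscle spindle, cartilage and bone 1 was higher (Col10a1) and 1 lower (Col2a1). Upstream sequences are from the RefSeq promoter table (GRCm38.p6).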

Additional observations from a re-analysis of the deposited data

Results flagged for a closer look

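Of 420 sets of 6 arrays, for the genes named above and the array distances, 42 held an array whose gap to its neighbour took more than 0.625 of the range of its group; chance marks about 1 in 20. Control soleus replicate 1 accounted for 19 of them, beginning with its RMS log2 difference of 0.299 from the mean of the other 5. In that array Myh7 (12.92), Tnni1 (12.19), Tnnt1 (12.10), Myl3 (11.92), Atp2a2 (12.44) and Casq2 (10.89) were the highest of the 6 soleus controls. Myh3 (9.80), Mybph (8.17), Actc1 (10.60), Klhl40 (8.06), Fst (7.38) and Hspb1 (10.35) were also highest there. Myh1 (10.81), Mstn (3.31), Tspan8 (3.50), Mrln (7.58), Tnnt3 (12.18) and Ppp1r3a (9.93) were lowest. Calls of named genes that were lost without this array are given under the processing.

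Control soleus replicate 5 had the lowest Mcm6 (3.43) and Phlda3 (6.21) and the highest Lmod3 (11.16) of its group. Knockout quadriceps replicate 2 had the lowest Ampd1 (9.69), Eya4 (7.63), Maf (8.73) and Tnnc2 (12.25) and the highest Cidec (9.65) of its group. Replicate 4 had the lowest Gadd45a (9.47) and replicate 6 the highest Fbxo31 (8.87) among the knockout arrays.

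In control quadriceps, which is given beside the comparison, replicate 4 had the lowest Actn3 (12.61), Atp2a1 (12.73), Mybpc2 (11.81), Ldha (11.91), Tmod1 (10.26) and Eci1 (8.20). Replicate 3 had the highest Adipoq (9.21), Cidec (8.69) and Postn (8.77). The remaining arrays with such a value were replicate 1 for Cpne2 (8.91), replicate 2 for Aldh3a1 (5.69), replicate 5 for Csrp3 (7.20) and replicate 6 for Esrrb (5.55). The reasons for these values were not tested.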

How the results depend on the processing

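Among 344 named genes, 249 were called, none of these reversed under any alternative, and 229, 238 and 234 kept their call with arrays centred on the median, on the 75th percentile and with quantile normalization. Counts of lower calls were the most dependent on scaling. With median centring 2039 genes were lower in knockout quadriceps and 1196 in control quadriceps than in soleus; with the 75th percentile 2718 were higher and 6391 lower in knockout quadriceps, and the median of the fast contractile list was 0.15. The stricter filter on dim genes left 2285 lower and 3972 higher calls, which moved the share of higher calls from 52% to 63.5%; the cause was not tested. The difference in array distance turned to -0.00106 with quantile normalization (exact permutation p = 0.974). Without 1 array at a time, called genes ranged from 7053 (without knockout quadriceps replicate 4) to 8227, genes at least 2-fold apart from 446 to 498, the slow contractile median from -0.50 to -0.38, the fast one from 0.22 to 0.38, and the distance difference from 0.00025 to 0.026 (exact permutation p from 0.223 to 0.998). Without soleus control replicate 1, 10 calls among named genes were lost (Cnn1, Esrra, Esrrg, Hoxd9, Lhx2, Mef2a, Myl2, Pfkm, Pitx1 and Tbx18) and 5 gained. The replicate block gave 8553 called genes in place of 8055; 1 named call was lost (Mef2a) and 8 gained, and the numbers do not pair knockout quadriceps with control soleus, whose genotypes differ: same-numbered deviations correlated at -0.04 to 0.28, with 1 of 6 above 0.1, and 3 of 6 arrays correlated best with their own number. With the animal (genotype and number) as a random block 8035 genes were called in knockout quadriceps and 6308 in control quadriceps against 8055 and 5362. Of the control calls stated for genes in the text, that of Meis2 changed. The block also paired the knockout muscles by number, although the labelled ages of replicate 4 differ between knockout quadriceps and knockout soleus. The planned comparison of isoform proteins was not run. With 6 arrays a group, the median SE of 0.097 on the log2 scale limits what small differences can show.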
